A study of Pyrus pyrifolia with 6 samples.

Results

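The genes described here code for light receptors, for the proteins that pass a light signal on and for the circadian clock, in skin of Cuiguan pear fruits (Pyrus pyrifolia). They were chosen by words in the gene descriptions of the authors' table (phytochrome, cryptochrome, phototropin, CONSTANS, B-box zinc finger, HY5, PIF, COP1, SPA1, FAR1-RELATED, early light-induced, APRR, GIGANTEA, EARLY FLOWERING and LHY, without bHLH). The rule uses no measured value, but these words and the comparison and marker lists below were set with earlier results of these data known. The words found 171 of 42933 genes. Of these, 10 are described as PIF1-like DNA helicases, which share letters with the PIF factors and have another function, and 9 of the 10 had no count. The tested one, LOC103966868, had a log2 fold change of 0.34 in bagged against untreated skin, which did not pass the test used below. RNA sequencing was done on 3 libraries from untreated fruits, which had no bag, and 3 libraries from fruits in paper bags. All fruits came from this 1 cultivar. Bagging began 20 days after full bloom with a single-layer white bag, a double-layer yellow-white bag followed at 40 days, and fruits of both groups were taken at 95 days. The hour of sampling and the number of fruits or trees behind each library are not stated in the labels, so p-values measure the spread between these libraries.

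Phytochromes sense red and far-red light, and cryptochromes and phototropins sense blue light. In darkness the ubiquitin ligase COP1, with its SPA partners, marks light-promoting factors such as HY5 for destruction, while the PIF factors keep dark growth going until phytochrome removes them. In fruit skin this pathway is known for its part in pigment formation. B-box proteins work beside HY5 and COP1, and the clock sets the hour at which many of these genes are transcribed.

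Library totals ran from 15764049 to 19546285 counts. A first principal component of log2 CPM (counts scaled to library size) held 46.8% of the variance and split bagged from untreated libraries. Untreated replicate 3 (-24.0) lay nearer to the bagged libraries (40.1 to 50.3) than the other untreated libraries did (-52.0 and -59.8). Of the skin markers, 35 of 61 epidermis and cuticle genes passed the filter on low counts, with 6 higher and 2 lower in bagged skin. Their summed level was 213 to 251 FPKM (the authors' unit, a count scaled to gene length and library size) in untreated and 280.0 to 449 FPKM in bagged libraries. Of 16 tested cork (suberin) genes, 12 were lower and none higher, with summed levels of 185 to 302 FPKM in untreated and 48.8 to 65.7 FPKM in bagged libraries. The cork word list also took in 2 genes described as 1-acyl-sn-glycerol-3-phosphate acyltransferase 5. Summed flesh sugar genes lay at 552 to 642 and 716 to 781 FPKM (1 of 24 lower), phloem genes at 32.2 to 62.8 and 36.8 to 40.9 FPKM (none of 7 called), and the 12 xylem and stone cell markers, none of which passed the filter, at 0.191 to 0.633 and 0.202 to 0.499 FPKM. The part of these tissue markers in the results below was not tested, and in bulk tissue fewer cells of a type and less RNA per cell cannot be told apart.

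Few light and clock genes changed measurably with bagging, as was also so among all tested genes. Of the 171 genes, 40 had no count in any library, 18 had counts too low for the filter (at most 54 in all 6 libraries together) and 113 were tested. In the edgeR quasi-likelihood test across all 25139 tested genes, with Benjamini-Hochberg adjusted p below 0.05, 1 member fell in bagged skin, none rose and 112 did not pass. Over all tested genes that test called 2.67%, with 0.971% higher and 1.69% lower, against 0.885% of these members lower. At an unadjusted p under 0.05 there were 14 members, 12.4% of those tested, against 15.9% of all genes. Groups without overlap were seen for 8 members with bagged libraries above (7.08%, against 10.7% of all tested genes) and 10 with bagged libraries below (8.85%, against 11.0%). The tested members and these counts include PIF7-like LOC103931008 (above) and BBX32-like LOC103932621 (below). Both passed the filter only through the group where they are high, so their separation is no result. DESeq2 called 1 member higher and 5 lower, where it called 3.01% of all genes higher and 2.97% lower (5.98% in all). The authors' deposited table lists the same split, 1 higher and 5 lower, with 2.36% of its genes higher and 2.36% lower (4.72% in all).

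The intervals show how large a change could have gone unseen. For 85 of the 113 tested members (75.2%) the 95% interval of the log2 fold change lay within -1 to 1, against 72.5% of all tested genes. For 54 members (47.8%) it lay within 1.5-fold either way, against 48.5% of all tested genes. The median log2 fold change was -0.07 over the members and -0.01 over all tested genes. It was -0.129 for the members when counts were scaled by library size alone, with -0.06 for all genes. The 40 members without a count are not shown to be silent, since reads shared with a near-identical copy may not have been counted.

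**Figure D1:**
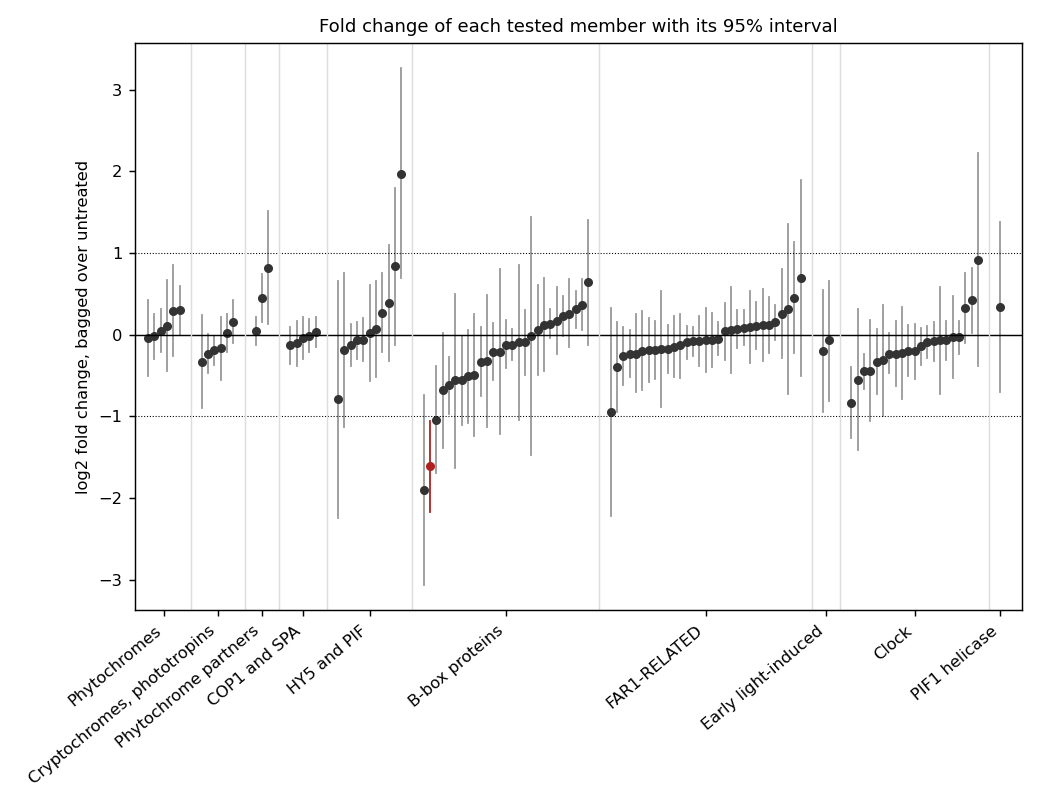
Log2 fold change of bagged over untreated skin (vertical axis) for the 113 tested members, grouped by role along the horizontal axis. Points are edgeR estimates, bars their 95% intervals, and dotted lines mark -1 and 1. The gene in red, a BBX19-like gene at -1.61, is the 1 member past the threshold. The outermost points are a BBX32-like gene below and a PIF7-like gene above. Both passed the filter on low counts only through the group where they are high, so their places are no result.

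The phytochromes were all detected and none of the 6 tested genes passed. The summed level of the 8 listed genes was 43.4, 43.6 and 46.2 FPKM in untreated replicates 1 to 3 and 50.6, 44.5 and 44.9 FPKM in bagged replicates 1 to 3. Phytochrome A, the far-red sensor that builds up in darkness, was the leading form, and LOC103955825 alone made up 42.4% to 52.6% of the phytochrome FPKM. It had 94.8, 94.7 and 103 CPM in untreated and 111, 98.5 and 80.5 CPM in bagged libraries. The bagged values lay on both sides of the untreated ones, and the log2 fold change was -0.02 with an interval of -0.30 to 0.26 (edgeR adjusted p = 0.966). The second phytochrome A-like gene, LOC103930273, differed by 0.05 (-0.21 to 0.31; adjusted p = 0.891).

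The order of median levels went on with the phytochrome E-like gene LOC103943526 at 6.68 FPKM, whose range overlapped that of LOC103930273 (median 10.4 FPKM). Phytochrome C (LOC103935440, median 1.77 FPKM) and the phytochrome B-like genes LOC103961302 (1.69 FPKM) and LOC103928909 (1.29 FPKM) were lower still, and these last genes overlapped in range, phytochrome C with LOC103961302 and LOC103961302 with LOC103928909. Phytochrome C did not overlap the phytochrome E-like gene. Phytochrome B is the main red-light receptor of seedlings in Arabidopsis. LOC103943526 had 25.7, 24.2 and 25.6 CPM in untreated and 26.2, 30.2 and 36.3 CPM in bagged libraries. Its groups did not overlap, with the bagged libraries above, yet the log2 fold change of 0.30 ± 0.13 (SE) did not pass (edgeR adjusted p = 0.315).

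The blue-light receptors were among the better expressed members. The cryptochrome-1-like gene LOC103967461 led with a median of 93.4 FPKM, followed without overlap by LOC103939713 (66.0 FPKM). The third cryptochrome-1-like gene, LOC103927183, and the genes of phototropin-1 (LOC103945655) and phototropin-2 (LOC103949524) overlapped one another at medians of 23.4 to 25.9 FPKM. Phototropins steer growth and chloroplast movement in blue light. LOC103967461 had 253, 226 and 221 CPM in untreated and 189, 184 and 224 CPM in bagged libraries. Bagged replicate 3 lay within the untreated range, and the log2 fold change of -0.23 (-0.47 to 0.01) did not pass (adjusted p = 0.333). Phototropin-2 had 92.6, 98.2 and 89.8 CPM in untreated and 84.6, 80.0 and 80.8 CPM in bagged libraries. All bagged values were lower, by a narrow margin, and the difference of -0.19 (-0.37 to -0.02) did not pass either (adjusted p = 0.256). LOC103939713 differed by 0.02 (-0.21 to 0.25) and LOC103927183 by -0.33 (-0.90 to 0.24), and cryptochrome DASH (LOC103953562), of a family known for repair of DNA, had a median of 3.29 FPKM.

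**Figure D2:**
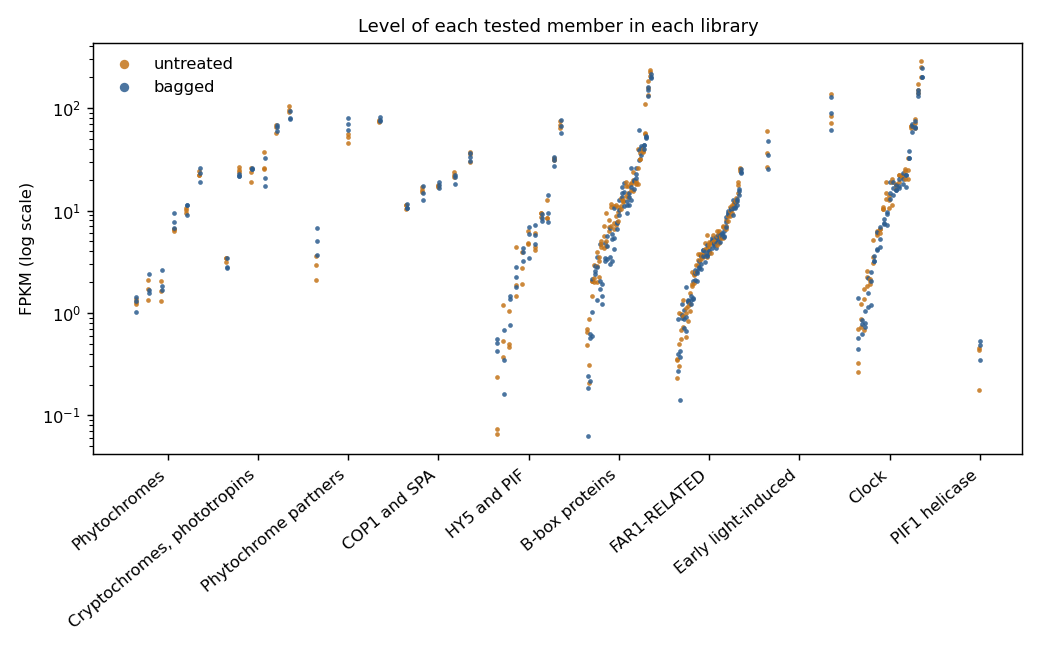
FPKM of the 113 tested members (vertical axis, log scale) by role (horizontal axis), each gene a column of 6 points, 3 untreated and 3 bagged libraries in 2 colours. The most abundant members are an APRR5 gene (median 223 FPKM) and CONSTANS-LIKE 9 (211 FPKM).

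Of the proteins that act on phytochrome, the PHYTOCHROME KINASE SUBSTRATE genes stood higher in bagged skin in all libraries, without passing the threshold. Such separation was seen for 10.7% of all tested genes. In Arabidopsis these proteins bind phytochrome and phototropin and take part in bending towards light. LOC103950830 (PHYTOCHROME KINASE SUBSTRATE 1) had 114, 92.1 and 108 CPM in untreated and 124, 163 and 142 CPM in bagged libraries. The log2 fold change was 0.45 ± 0.13 (SE) with an edgeR adjusted p of 0.127, and DESeq2 called it (adjusted p = 0.0293). LOC103958720 (PHYTOCHROME KINASE SUBSTRATE 3-like) had 3.76, 4.53 and 2.66 CPM against 4.60, 6.30 and 8.47 CPM, so that bagged replicate 1 lay only just above untreated replicate 2. Its log2 fold change was 0.82 ± 0.30 (adjusted p = 0.226). The phytochrome-associated phosphatase gene LOC103943242 was steady at 86.3 to 90.7 CPM in untreated and 88.7 to 96.4 CPM in bagged libraries (0.05, interval -0.12 to 0.22).

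COP1 and the SPA genes differed little between the groups: the intervals of all 5 lay within 1.5-fold either way, with a median SE of 0.10. Summed, they stood at 94.6 to 105 FPKM in untreated and 96.6 to 98.0 FPKM in bagged libraries. The COP1-like gene LOC103948238 had 112, 139 and 134 CPM in untreated and 124, 114 and 136 CPM in bagged libraries. The groups overlapped, and the log2 fold change was -0.04 (-0.30 to 0.22; edgeR adjusted p = 0.909). It overlaps LOC103948239, a probable tyrosine phosphatase gene on the same strand with 5052 counts, so some reads may belong to that gene. The second COP1-like gene, LOC103932349, differed by -0.13 (-0.36 to 0.09), SPA1-RELATED 2 (LOC103943747) by 0.03 (-0.15 to 0.22), and the SPA1-RELATED 4 genes LOC103947612 and LOC103933095 by -0.01 and -0.10.

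HY5, the bZIP factor that switches on light-induced genes, was represented by 3 genes, of which LOC103944715 carried 73.0% to 83.4% of the HY5 FPKM. It had 30.7, 31.2 and 32.2 CPM in untreated and 32.6, 30.2 and 26.7 CPM in bagged libraries. Bagged values fell on both sides of the untreated ones, with a log2 fold change of -0.07 (-0.30 to 0.16; edgeR adjusted p = 0.793). On the other strand it overlaps the pectin acetylesterase gene LOC103944714 (1821 counts), and the strand setting of the counting is not given in the sources used here. The other HY5-like genes, LOC103940241 and LOC103946681, differed by 0.27 and 0.39, with intervals that include 0.

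Of the PIF factors, which promote growth in darkness and shade, the PIF3-like gene LOC103955840 was the most abundant, with a median of 67.5 FPKM and 76.7% to 84.7% of the PIF3 FPKM. It had 225, 258 and 241 CPM in untreated and 264, 230.4 and 201 CPM in bagged libraries, overlapping groups with a log2 fold change of -0.06 (-0.32 to 0.21; edgeR adjusted p = 0.862). PIF1 (LOC103961475) differed by -0.12 (-0.38 to 0.13). PIF4 (LOC103965596) had 1.22, 1.12 and 2.54 CPM in untreated and 3.57, 3.32 and 1.83 CPM in bagged libraries. Its log2 fold change of 0.84 (-0.12 to 1.80) did not pass (edgeR adjusted p = 0.375). The PIF4-like gene LOC103947396, at a higher mean level (2.44 against 0.937 FPKM), did not pass either. In the authors' deposited table the log2 fold change of LOC103947396 is -0.19. The PIF7-like genes, picked after their values were seen, were both near the filter. LOC103931008 had 2, 2 and 6 counts in untreated and 11, 15 and 15 counts in bagged libraries. It passed the filter only through the bagged group, where it is high, so no fold change or test is given for it. LOC103931367 had a log2 fold change of -0.79 (-2.24 to 0.66).

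**Figure D3:**
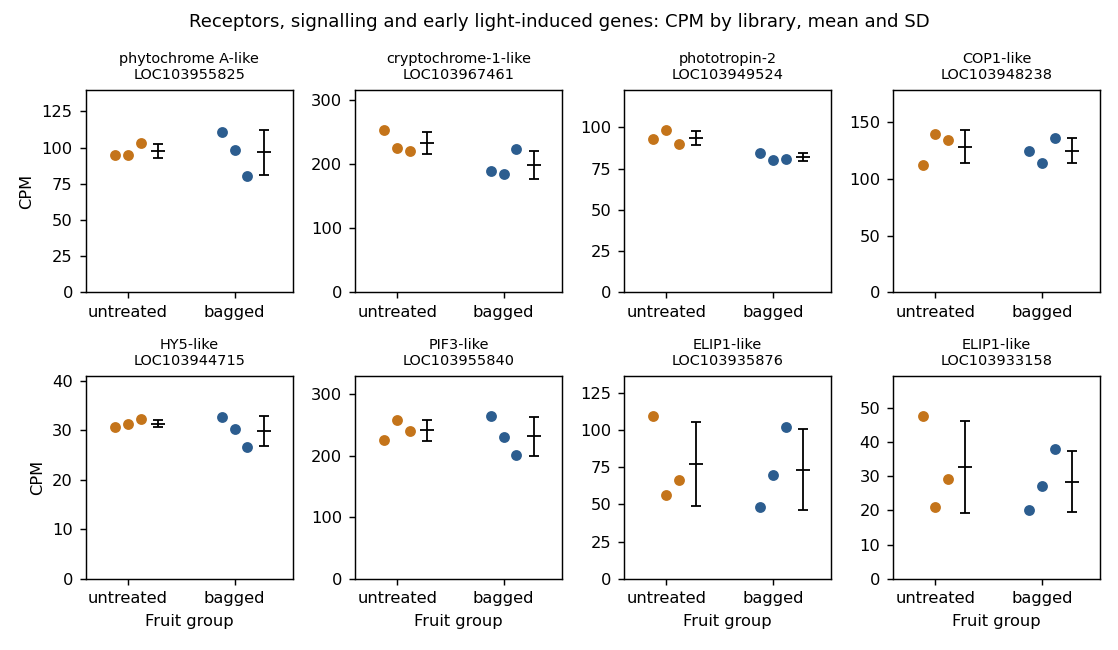
CPM (vertical axis, from 0) of 8 receptor, signalling and early light-induced genes in the 3 untreated and 3 bagged libraries (horizontal axis). Points are libraries and bars the mean with its SD. The groups overlap in each panel but that of phototropin-2, where the bagged libraries lie at 80.0 to 84.6 CPM and the untreated at 89.8 to 98.2 CPM.

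The B-box proteins, a family of zinc finger regulators that includes CONSTANS, held the 1 called member. Of 44 B-box genes in the table, 8 had no count and 27 were tested, with 1 lower (3.70%, against 1.69% of all tested genes), none higher and 26 that did not pass. An unadjusted p under 0.05 was seen for 7 (25.9%, against 15.9% of all tested genes). Bagged libraries lay below without overlap for 5 (18.5%, against 11.0%) and above for 3 (11.1%, against 10.7%). The 27 tested genes and the 5 include LOC103932621, which passed the filter only through its high group. No share given here was computed without it. Whether these shares exceed the background was not tested. The BBX19-like gene LOC103937075 (scaffold NW_008988863.1, 52511 to 56072, minus strand) fell in bagged skin. In Arabidopsis BBX19 takes part in flowering time and in seedling growth in light. It had 5.44, 5.80 and 5.14 CPM in untreated and 2.24, 1.72 and 1.41 CPM in bagged libraries. The highest bagged library lay well below the lowest untreated one, and the means were 5.46 ± 0.329 and 1.79 ± 0.418 CPM (SD, n = 3). The log2 fold change was -1.61 ± 0.24 (SE), with an interval of -2.17 to -1.06 and an edgeR adjusted p of 0.0171. The call was lost without untreated replicate 1 (0.0579), untreated replicate 2 (0.061) or bagged replicate 2 (0.0646), while the fold change stayed between -1.80 and -1.46 over all 6 libraries left out in turn. It rested on 83 to 114 counts per untreated and 27 to 37 per bagged library.

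The other BBX19-like genes did not pass. LOC103966728 had 2.31, 3.15 and 2.17 CPM in untreated and 3.09, 2.69 and 2.56 CPM in bagged libraries (0.12, interval -0.45 to 0.70). LOC103930966 had 2.08, 2.09 and 1.49 CPM against 0.605, 2.17 and 1.05 CPM (-0.56, interval -1.63 to 0.50). So LOC103937075 was the highest of the BBX19-like genes in all untreated libraries at 4.39 to 4.99 FPKM. In bagged libraries it had 1.21 to 1.92 FPKM, and LOC103966728 had 2.41 to 2.90 FPKM. The difference between these genes in their response was not tested.

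The bulk of B-box transcripts came from other genes. CONSTANS-LIKE 9 (LOC103951792, median 211 FPKM) and CONSTANS-LIKE 4-like (LOC103953229, median 153 FPKM) were the most abundant, in that order and without overlap, and made up 27.6% to 33.1% and 19.2% to 22.4% of the B-box FPKM. In Arabidopsis both are repressors of flowering. LOC103951792 had 528, 545 and 482 CPM in untreated and 460, 496 and 471 CPM in bagged libraries, overlapping groups with a log2 fold change of -0.12 (-0.31 to 0.07; edgeR adjusted p = 0.517). LOC103953229 differed by -0.12 (-0.41 to 0.18). The CONSTANS-LIKE 6-like gene LOC103947556 (like the next 4 genes, picked after its values were seen) had 182 CPM in untreated replicate 1 against 92.6 and 95.6 CPM in the other untreated libraries and 83.3 to 89.2 CPM in bagged ones. The groups did not overlap, yet 1 library stood apart and the fold change of -0.51 (-1.08 to 0.06) did not pass.

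Among the members called by DESeq2 but not by edgeR, CONSTANS-LIKE 13 (LOC103967378) had 34.8, 31.0 and 25.3 CPM in untreated and 22.2, 20.2 and 17.0 CPM in bagged libraries. Its log2 fold change was -0.62 ± 0.15 (SE), with an adjusted p of 0.0869 in edgeR and 0.0151 in DESeq2. CONSTANS-LIKE 3-like (LOC103945666), whose Arabidopsis namesake promotes light responses, ranged from 7.73 to 12.8 CPM in untreated and from 3.56 to 6.54 CPM in bagged libraries. Both genes had all bagged values below all untreated ones. For LOC103945666 the change was -1.04 ± 0.28 (edgeR adjusted p = 0.118, DESeq2 0.016). BBX32 of Arabidopsis restrains light responses. Outside the DESeq2 calls, the BBX32-like gene LOC103932621 had 20, 21 and 13 counts in untreated and 5, 7 and 2 counts in bagged libraries. It passed the filter (minimum count 10) only through the untreated group, where it is high, so no fold change or test is given for it. Also outside the DESeq2 calls, the CONSTANS-LIKE 4-like gene LOC103949680 ranged from 23.2 to 52.0 CPM in untreated and from 40.2 to 78.5 CPM in bagged libraries. Its groups overlapped, with a dispersion 4.21 times the fitted trend.

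**Figure D4:**
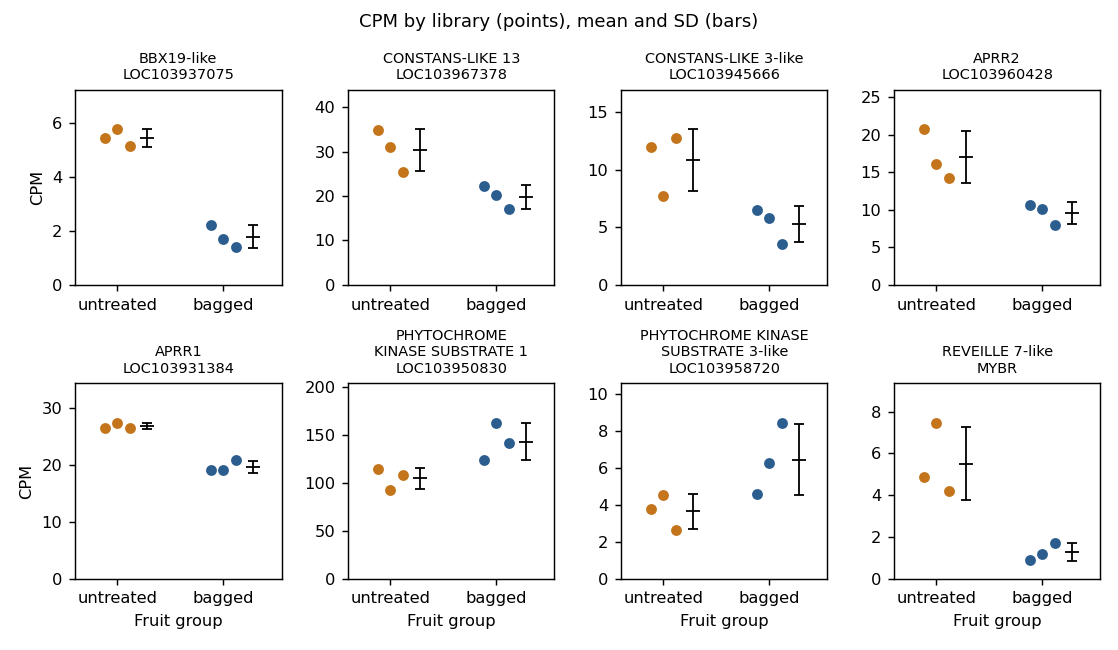
CPM (vertical axis, from 0) of 7 members and of the REVEILLE 7-like gene in each of the 3 untreated and 3 bagged libraries (horizontal axis). Points are libraries and bars the mean with its SD. The panels are a selection, and the groups do not overlap in any of them. Such separation was seen for 7.08% of tested members above and 8.85% below, against 10.7% and 11.0% of all tested genes. Of the genes shown, edgeR called the BBX19-like gene (5.14 to 5.80 against 1.41 to 2.24 CPM) and the REVEILLE 7-like gene.

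FAR1-RELATED genes derive from transposases, and their founders FAR1 and FHY3 carry phytochrome A signals in Arabidopsis. They were the largest group, 48 genes, of which 12 had no count and 31 were tested. None passed (against 2.67% of all tested genes), and none had an unadjusted p under 0.05 (against 15.9%). Fold changes ran from -0.94 to 0.69 with a median of -0.07, and 27 of the 31 intervals lay within -1 to 1. FAR1-RELATED SEQUENCE 4-like (LOC103943281) was the most abundant, with 72.5, 77.8 and 76.9 CPM in untreated and 75.2, 70.6 and 68.9 CPM in bagged libraries. The groups overlapped, with a log2 fold change of -0.08 (-0.26 to 0.09; edgeR adjusted p = 0.666). Next came FAR1-RELATED SEQUENCE 5-like (LOC103939323), which differed by -0.18 (-0.47 to 0.12), and the largest difference among members with an average log2 CPM of at least 1 was that of FAR1-RELATED SEQUENCE 10 (LOC103927973, 0.45, interval -0.22 to 1.13). The description FAR1-RELATED SEQUENCE 5 covers 21 genes, of which 12 were tested, and no single one held more than 29.3% of their FPKM.

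Early light-induced proteins bind chlorophyll in the thylakoid when light is in excess. The table lists 14 such genes, 8 of them on scaffold NW_008988626.1 between 16040 and 261813 and 3 on scaffold NW_008988776.1 within 50.1 kb. From each of these clusters 1 gene was well expressed and the others had few or no counts (6 of 8 and 2 of 3 without any). LOC103935876 had 109, 56.2 and 66.3 CPM in untreated and 47.9, 69.9 and 102 CPM in bagged libraries. LOC103933158 had 47.4, 21.1 and 29.2 CPM in untreated and 20.2, 27.1 and 37.8 CPM in bagged libraries. Both genes were highest in untreated replicate 1 and lowest in bagged replicate 1, with bagged replicate 3 second, and the FPKM of the first was 2.28 to 2.71 times that of the second in each library. The groups overlapped, with log2 fold changes of -0.07 (-0.81 to 0.66) and -0.20 (-0.94 to 0.55), intervals wider than those of the receptors.

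Photosynthesis genes, a separate list, also stood highest in untreated replicate 1, at 8110.1 FPKM summed against 4469.5 and 4318 FPKM in untreated replicates 2 and 3 and 4172, 5245 and 3547 FPKM in bagged replicates 1 to 3. Of the 72 tested, none was called, 16 had an unadjusted p under 0.05 (22.2%, against 15.9% of all tested genes), and the median log2 fold change was -0.49. The authors' deposited table has 2 genes of this list lower and none higher. In bagged replicate 3 they were lowest, while the early light-induced genes were second highest there.

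The clock runs as a loop in which morning factors such as LHY and evening factors such as APRR1 (TOC1 in Arabidopsis) repress each other, with APRR7 and APRR5 acting in turn through the day and ELF3, ELF4 and GIGANTEA towards evening. All but 1 of the 22 genes grouped here were tested, and none passed. The group holds 5 APRR2 genes, which were placed here by description and are not among the loop genes named above. Another member, LOC103933744, is described as PHOTOPERIOD-INDEPENDENT EARLY FLOWERING 1, a chromatin remodeller that matched only by the words EARLY FLOWERING. It is no clock gene, differed by -0.09 (-0.28 to 0.11), and with a mean of 17.0 FPKM is included in the counts and sums. The summed level of the group was 657, 795 and 728 FPKM in untreated and 669, 697 and 635 FPKM in bagged libraries. The APRR5 genes were the most abundant of all clock members, LOC103943360 at a median of 223 FPKM and LOC103951583 at 145 FPKM. GIGANTEA-like LOC103927895 (68.3 FPKM) and APRR7 LOC103934049 (67.3 FPKM) followed and overlapped each other. LHY-like LOC103927985 had a mean of 5.46 FPKM. The order of levels in a clock depends on the hour, which the labels do not give.

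LOC103943360 had 516, 733 and 660.4 CPM in untreated and 514, 625 and 519 CPM in bagged libraries, and LOC103951583 had 354, 424 and 375 CPM against 325, 370.2 and 348 CPM. Groups of both overlapped, with log2 fold changes of -0.20 (-0.54 to 0.13) and -0.14 (-0.37 to 0.08; edgeR adjusted p = 0.552 and 0.528). LHY-like LOC103927985 had 19.4, 20.5 and 21.7 CPM in untreated and 14.3, 20.9 and 13.8 CPM in bagged libraries. Bagged replicate 2 lay within the untreated range, and the change of -0.33 (-0.73 to 0.07) did not pass (adjusted p = 0.404). GIGANTEA-like LOC103927895 differed by -0.08 (-0.32 to 0.16) and LOC103929075 by -0.03 (-0.53 to 0.48). The ELF3-like genes LOC103929644 and LOC103951808 differed by -0.07 (-0.31 to 0.17) and -0.23 (-0.47 to 0.02), and ELF4-like LOC103960741 by 0.33 (-0.10 to 0.76).

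**Figure D5:**
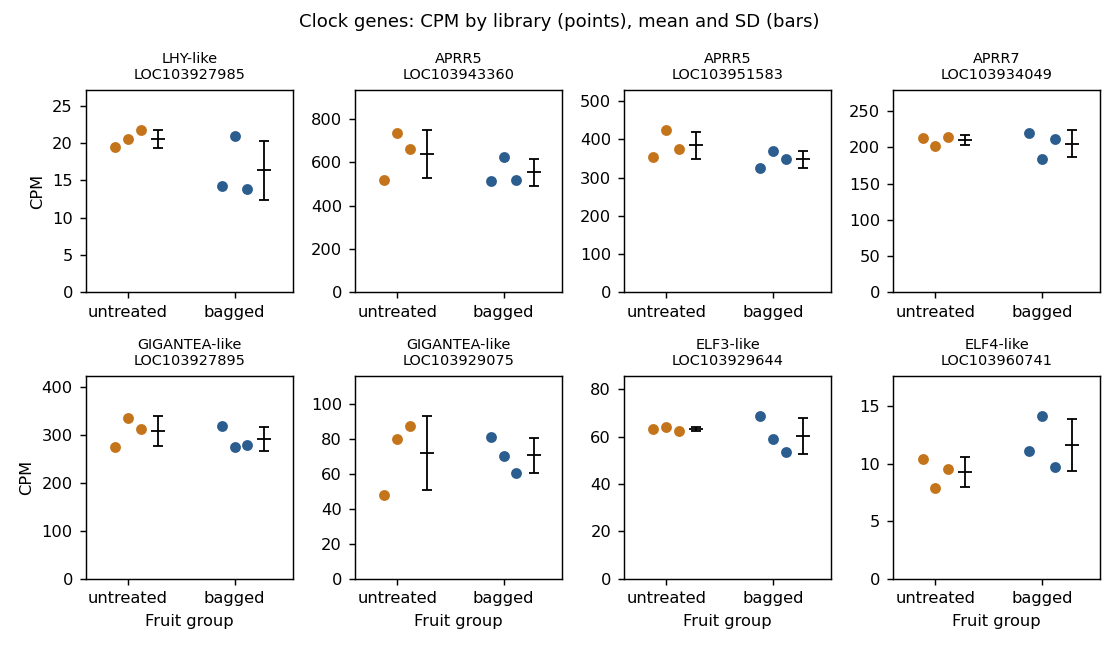
CPM (vertical axis, from 0) of 8 clock genes in the 3 untreated and 3 bagged libraries (horizontal axis). Points are libraries and bars the mean with its SD, and the groups overlap in each panel, as in LHY-like with 19.4 to 21.7 CPM untreated and 13.8 to 20.9 CPM bagged.

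Of the 21 tested genes of this group, 2 had bagged values that all lay below the untreated ones (9.52%, against 11.0% of all tested genes), a share near the background. APRR2 (LOC103960428), a gene whose relatives are tied to fruit pigment in tomato and pepper, had 20.8, 16.1 and 14.2 CPM in untreated and 10.7, 10.1 and 7.95 CPM in bagged libraries. The log2 fold change was -0.83 ± 0.18 (SE), with an interval of -1.26 to -0.40 and an adjusted p of 0.063 in edgeR and 0.00475 in DESeq2. In the authors' deposited table it stands at -0.83 with an adjusted p of 0.00537. The other 4 APRR2 genes did not follow one direction, with fold changes of -0.55, -0.31, -0.07 and 0.92 and intervals that include 0. APRR1 LOC103931384 (picked after its values were seen) had 26.6, 27.5 and 26.6 CPM in untreated and 19.1, 19.1 and 20.9 CPM in bagged libraries. Its replicates lay close together, and the log2 fold change of -0.45 ± 0.09 narrowly missed the threshold in edgeR (adjusted p = 0.0511; 0.0224 in DESeq2; 0.0224 to 0.158 over all alternatives). The second APRR1 gene, LOC103931191, at a higher level, had 62.6, 59.0 and 50.3 CPM against 54.6, 54.1 and 41.4 CPM (-0.20, interval -0.51 to 0.12).

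Light and clock genes outside the member words were read from a further list of 103 genes (the UV-B receptor, the COP9 signalosome, REVEILLE, ADAGIO, LNK2, DET1 and others). Of 84 tested, 1 was lower (1.19%, against 1.69% of all tested genes), none higher and 83 did not pass, with a median of -0.05. The authors' deposited table has 1 gene of this list higher and 1 lower. The gene that fell was REVEILLE 7-like, listed under the symbol MYBR (scaffold NW_008988083.1, 302141 to 304090), of the single-MYB family of LHY. It had 4.86, 7.48 and 4.21 CPM in untreated and 0.908, 1.20 and 1.73 CPM in bagged libraries. The groups did not overlap, and the log2 fold change was -2.10 ± 0.34 (SE; edgeR adjusted p = 0.0225). The call was lost without untreated replicate 1 (0.0596) or 2 (0.0633) and without bagged replicate 1 (0.0853) or 2 (0.0811), with fold changes of -2.18 to -1.82 in those fits. In the other direction, NPY2-like LOC103928096 (picked after its values were seen), whose Arabidopsis relatives are kin of the phototropin partner NPH3, had 0.868, 1.12 and 1.98 CPM in untreated and 3.69, 5.15 and 3.50 CPM in bagged libraries. All bagged values were higher, and the log2 fold change of 1.64 ± 0.35 (SE) did not pass (edgeR adjusted p = 0.0587).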

How the data were processed

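The authors deposited raw read counts and FPKM per gene and library, and, per the file headers, their log2 fold change, p-value and adjusted p-value of bagged against untreated skin, with the test not named, and scaled group means, a signal that was not used. HISAT2 is named in the submitters' processing notes. No counter, strand setting, build or annotation is given in the sources used here, and positions are those the authors listed. The counts went into edgeR 4.0.16 (R 4.3.3): filterByExpr (minimum count 10, minimum total 15), TMM scaling, the quasi-likelihood test without covariates and Benjamini-Hochberg adjustment over 25139 genes. SE is the log2 fold change over the root of F, and CPM uses TMM-scaled totals. The median SE over all genes was 0.17. DESeq2 1.42.0 and limma 3.58.1 were alternatives.

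Members and lists were chosen with earlier results of these data known. Named are called members, the 2 of highest mean FPKM per role and, per role, the largest fold change at an average log2 CPM of at least 1 (26 genes). Other genes described fall outside this rule and were picked after their values were seen. Replicates differed beyond counting noise (chi-square of 12.3 to 20.7 per degree of freedom). The test was checked on simulated counts with 200 changed genes and spread taken from the fitted trend. It called 56% of genes changed by a log2 fold change of 1 either way and 95% of those changed by 2. Of its calls, 2.58% were false. Promoter and protein sequences were not used here. In all, 15 members overlap another listed gene.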

Additional observations from a re-analysis of the deposited data

How the results depend on the processing

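The count of called genes, 670, was 1501 with DESeq2 and 205 to 692 with 1 library left out. Members called higher, none, were 1 with DESeq2 and 1 with a replicate block. Members called lower, 1, were 2 with upper quartile factors, library size alone or the CPM filter, 3 with the replicate block, 5 with DESeq2, and 0 to 1 with 1 library left out (0 without untreated replicate 1 or 2 or bagged replicate 2). Upper quartile factors, library size alone and the CPM filter each added APRR1 LOC103931384. The block added CONSTANS-LIKE 4-like LOC103949680 (higher), CONSTANS-LIKE 13 and APRR2. Same-numbered libraries did not deviate together in every pair (correlations of -0.0444, 0.083 and 0.0567), so the numbers are not treated as pairs. The member median moved from -0.07 to -0.129 with library size alone, and the median of all tested genes moved from -0.009 to -0.063. Of genes not called, some changed sign: LOC103930273 (-0.007), LOC103939713 (-0.033) and LOC103943242 (-0.003) with library size alone, and LOC103939713 (-0.009) with upper quartile factors. With 1 library left out the log2 fold change ran from -0.007 to 0.148 for LOC103930273, -0.460 to 0.179 for LOC103933158, -0.387 to 0.262 for LOC103935876, -0.055 to 0.076 for LOC103939713, -0.137 to 0.004 for LOC103944715, -0.129 to 0.023 for LOC103948238, -0.219 to 0.005 for LOC103953229, -0.125 to 0.099 for LOC103955825 and -0.159 to 0.036 for LOC103955840. The cause of these changes was not tested.

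BBX19-like LOC103937075 and REVEILLE 7-like passed in all 10 alternatives that keep every library (adjusted p up to 0.0317 and 0.0371). Depth limits the members near the filter, such as PIF7-like with 2 to 15 counts per library.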

Other observations

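The phytochrome E-like genes LOC103945066 and LOC103951233 were below the filter and went into no test. LOC103945066 had 8, 3 and 8 counts in untreated and 0, 0 and 2 counts in bagged libraries. LOC103951233 had 0, 2 and 0 counts in untreated and 7, 3 and 23 counts in bagged libraries. Each overlaps a gene described as MEI2-like 3 on the other strand (350 and 496 counts in all). They were singled out after their counts were seen, and whether reads were shared between the copies was not tested.

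The authors' family column gives a single label per member, so its counts are not counts of genes that hold a domain. It lists 50 genes under FAR1, of which 41 are members by description, and 16 under B-box, of which 15 are members. Of the 44 B-box members, 24 are listed under CCT, the domain that CONSTANS shares with the clock regulators, and 5 have no family entry.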
